A study of Mus musculus with 4 samples.

Results

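The genes that feed and read out the CCR2 axis of monocyte recruitment were followed in tumour leukocytes. They were 8 of the 32285 genes counted, chosen by name: the chemokines Ccl2, Ccl7, Ccl8 and Ccl12, the chemokine receptors Ccr2 and Cx3cr1, the receptor Csf1r and the cytokine Csf2. The cells came from subcutaneous tumours of C57BL/6 mice implanted with KPC cells, a pancreatic cancer line, and were sorted as live CD45-positive cells. The study pooled tumours within a group before sorting, by its methods, so no value belongs to a single animal. The 4 libraries form 4 groups: untreated, STING agonist alone (ADU-S100, a synthetic cyclic dinucleotide given into the tumour), LTβR agonist alone (an agonistic antibody against the lymphotoxin-β receptor, given intraperitoneally), and the combination of both. All groups carry grafts of the same tumour line, and which of the study's single-cell experiments the libraries come from is not stated.

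CCL2, CCL7 and CCL12 bind CCR2, the receptor through which classical monocytes leave the bone marrow and enter inflamed tissue. CCL8 belongs to the same family, and in the mouse it is best known as a ligand of CCR8. CX3CR1 binds fractalkine and marks nonclassical monocytes and many tissue macrophages. CSF1R carries the survival signal of CSF1 and IL-34 in macrophages, and Csf2 encodes GM-CSF, which lymphocytes release to act on myeloid cells. Only RNA was measured here, so movement of monocytes was not.

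The quality limits kept 23011 of 24839 barcodes, between 3748 and 7147 per library, with median depths of 5750 to 7094 unique molecular identifiers (UMIs) per cell. Barcodes above the mitochondrial limit made up 2.71% of the untreated library, 2.68% with STING agonist, 5.99% with LTβR agonist and 6.78% with both agonists. Clustering gave 29 clusters, and 7 of them (9077 cells) formed the macrophage- or monocyte-like class. Neither the 8 genes nor their 33 listed companions were used for clustering. The T-like class (4258 cells) does not hold every T cell: unnamed cluster 2 (2090 cells, led by Gzmf and Cd8a) and unnamed cluster 6 (984 cells), among others, stayed outside it, and T cell markers summed to 3532 CPM (UMIs scaled to the total of the same cells) over all unnamed cells against 3278 CPM in the class. Cell names were rebuilt from marker RNA and are not those of the study. Each group had 1 library, so no test was possible, and the 95% intervals given in parentheses cover counting error only. Where 4 values are listed together they follow the order untreated, STING agonist, LTβR agonist, both agonists, and 3 ratios follow the same order without the first. Among kept cells, 246 barcode sequences occurred in more than 1 library, and leaving those cells out moved no member's value beyond its counting interval.

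The 4 ligand genes lie close together on the plus strand of chromosome 11 (GRCm38, GENCODE vM21), each with 3 exons. Ccl2 (ENSMUSG00000035385) spans chr11:82035571-82037453 and Ccl7 (ENSMUSG00000035373) spans chr11:82045712-82047525. Ccl12 (ENSMUSG00000035352) follows at chr11:82101845-82103400 and Ccl8 (ENSMUSG00000009185) at chr11:82115185-82116799, so the whole group occupies 81229 bp. The longest run of identical bases shared by any pair of their transcripts was 23 bases, between Ccl2 and Ccl7. Csf2 (ENSMUSG00000018916) is on the minus strand of the same chromosome at chr11:54247271-54249667. Ccr2 (ENSMUSG00000049103) is at chr9:124101950-124113557 on the plus strand and Cx3cr1 (ENSMUSG00000052336) at chr9:119901616-120069879 on the minus strand.

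Ccl12 and Ccl8 are neighbours, 11784 bp apart. Their levels in the whole macrophage- or monocyte-like class of the combination library lay on opposite sides of the untreated ones, which is why their promoters are shown. The contrast did not hold within each cluster. In the resident-like macrophage cluster, described below, both were lower with the combination than untreated (Ccl8 541 against 770 CPM, Ccl12 330 against 571 CPM). The untreated levels there rest on few of its 77 cells, as the 10 leading cells held 83.8% of Ccl8 and 61.9% of Ccl12 UMIs. RefSeq promoter entries (GRCm38.p6) were matched for 5 of the 8 genes (Ccl12, Ccl8, Ccr2, Cx3cr1 and Csf2). The 250 bases before the annotated start are given 5′ to 3′ on the plus strand, chr11:82101595-82101844 for Ccl12 and chr11:82114935-82115184 for Ccl8, with the motif TATAAA in capitals.
Ccl12: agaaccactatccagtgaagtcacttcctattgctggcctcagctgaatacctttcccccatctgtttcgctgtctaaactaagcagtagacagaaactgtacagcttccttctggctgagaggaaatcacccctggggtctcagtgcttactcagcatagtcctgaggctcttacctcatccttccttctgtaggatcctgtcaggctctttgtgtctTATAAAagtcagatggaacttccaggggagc
Ccl8: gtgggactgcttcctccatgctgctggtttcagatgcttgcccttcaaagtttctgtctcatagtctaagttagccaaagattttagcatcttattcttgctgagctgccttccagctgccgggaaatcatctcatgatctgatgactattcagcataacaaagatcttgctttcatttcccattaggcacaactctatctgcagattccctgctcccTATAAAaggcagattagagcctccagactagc
TATAAA began 31 bases before the start in Ccl12 and 32 bases before it in Ccl8, and occurred on either strand in 12.3% of 32536 windows of the same length. The windows shared no identical run longer than 8 bases and were 55.6% identical in a global alignment. Neither held the gamma-activated site letters TTCNNNGAA on either strand, which 7.04% of the windows did. Ccr2, Cx3cr1 and Csf2 held neither of these. A κB motif, found in 46.0% of windows, matched in Cx3cr1 alone of the 5 genes, 174 bases before the start on the minus strand, and an interferon-stimulated response element (2.98%) matched in none. These matches describe letters and not binding.

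Ligand RNA was concentrated in macrophage- and monocyte-like cells. That class held 21349 of 23644 Ccl2 UMIs (90.3%), 7009 of 7721 Ccl7 UMIs (90.8%), 4574 of 5113 Ccl8 UMIs and 11321 of 12817 Ccl12 UMIs. Ccl2 was detected in 30.5% of these cells, against 0.681% of T-like cells. Median depths were 8637 and 3565 UMIs per cell, and with every cell thinned to 1000 UMIs the shares were 12.6% and 0.246%. The share in T-like cells is the background against which ligand detection was read, and whether it came from free RNA, doublets or the cells themselves was not tested.

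Among the clusters, each ligand had its own distribution, shown in the heat map of the 8 genes. Pooled over libraries, Ccl2 reached 400 CPM (392 to 409) in the Cxcl9 Cxcl10 macrophage-like cluster and 301 CPM (287 to 316) in the resident-like macrophage cluster. The latter carried Retnla, Mrc1 and Pf4, markers of tissue-resident macrophages. Ccl7 was at 365 CPM (350 to 381) in the resident-like cluster and at most 95.9 CPM in the other 6 clusters of the class. Ccl12 had 415 CPM (398 to 432) there, 308 CPM (277 to 342) in an unnamed macrophage subset of low depth (597 cells, median 1267 UMIs) and 157 CPM in the C1q Trem2 macrophage-like cluster. Ccl8 reached its highest levels in 2 clusters, with overlapping intervals: 504 CPM (486 to 523) in the resident-like cluster and 561 CPM (518 to 607) in the low-depth subset. In the C1q Trem2 cluster it was lower, at 21.2, 29.5, 11.6 and 10.9 CPM by library, from 315, 247, 112 and 53 UMIs. It stood at 2.81 CPM in the Cxcl9 Cxcl10 cluster, 1.70 CPM in the monocyte-like cluster and 1.52 CPM in the nonclassical monocyte-like cluster. The basophil- or mast-like cluster of 27 cells had higher pooled levels of Ccl2 and Ccl7 than any macrophage cluster, but 124 of its 127 Ccl7 UMIs came from 1 cell of the LTβR agonist library.

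**Figure D1:**
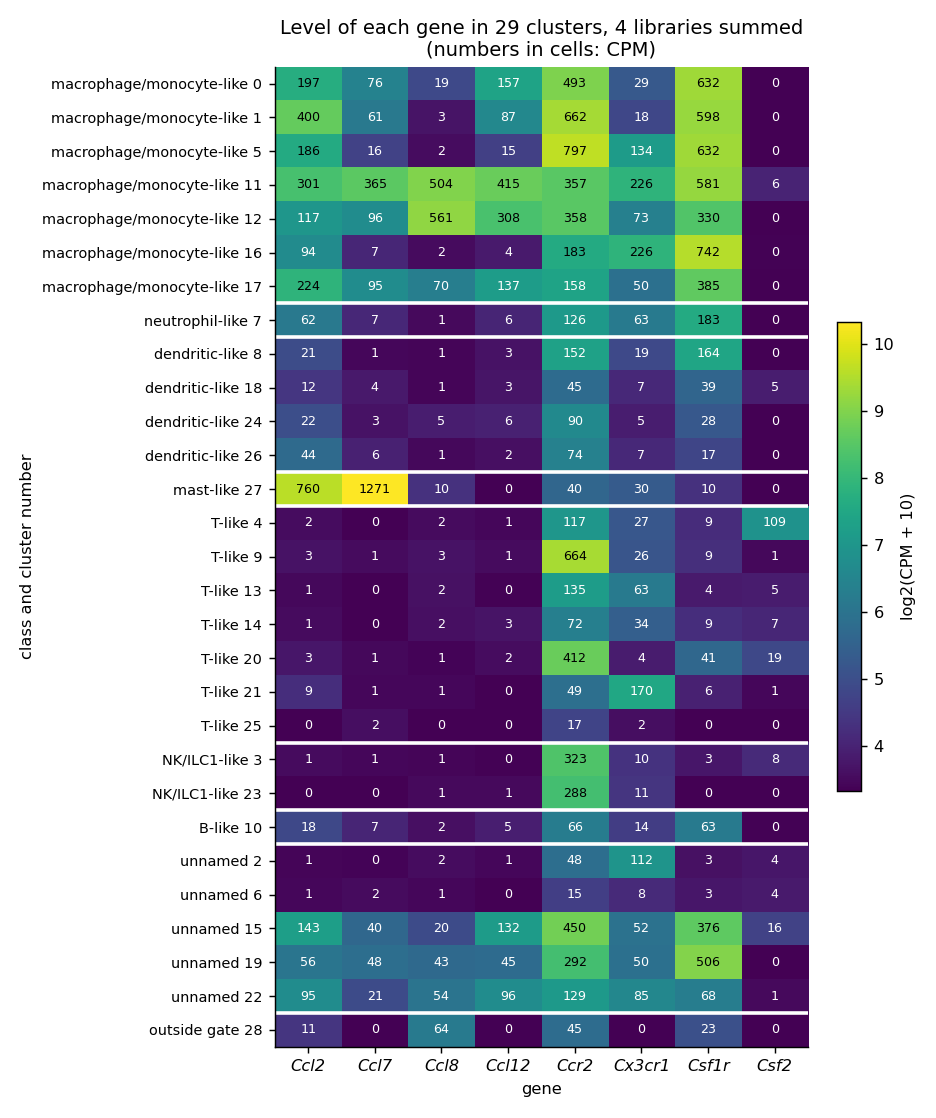
Pooled level of the 8 genes (columns) in the 29 clusters (rows), with CPM printed in each field and colour showing log2(CPM + 10). The ligands are high in the macrophage rows, Ccl8 is highest in the low-depth subset (561 CPM) and the resident-like cluster (504 CPM), and Csf2 is highest in the ILC2- or Th2-like T cluster (109 CPM).

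Ccl2 and Ccl7 were often found in the same cells. Of macrophage- or monocyte-like cells with a Ccl2 UMI, 23.5% also had Ccl7, against 3.22% of cells without Ccl2 (15.3% and 2.31% after thinning). Ccl8 went with Ccl12 in the same way: 56.7% of Ccl8-positive cells had a Ccl12 UMI, against 21.7% of the others (34.6% and 7.204% after thinning). Cells with Ccl8 less often had the receptor Ccr2 (49.0% against 76.8%, thinned 12.5% against 36.3%) and more often had Cx3cr1 (46.7% against 20.2%, thinned 18.3% against 5.32%). Cells of all libraries are pooled in these shares, and cells of 1 library are not replicates. At least 1 ligand was missing from nearly every cell, and all 4 were seen together in 23 untreated cells (0.779%), 9 with STING agonist (0.636%), 33 with LTβR agonist (1.14%) and 35 with both agonists (1.93%). After thinning that share was between 0.0576% and 0.145% in each library.

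Summed over the 4 ligands, the level in macrophage- or monocyte-like cells was nearly level between libraries. It was 527 CPM (518 to 535) in the untreated library, 539 CPM (527 to 551) with STING agonist, 553 CPM (544 to 562) with LTβR agonist and 513 CPM (502 to 525) with both agonists. The log2 ratios to untreated, computed after adding 10 CPM, were 0.03 (-0.02 to 0.09), 0.07 (0.02 to 0.12) and -0.04 (-0.09 to 0.02) in this order. All 3 comparisons use the same untreated library, and the bounds of a ratio set each level's bound against the opposite bound of the other. With the combination the sum at untreated cluster proportions was lower, at -0.41, a weighting described with Ccl8.

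Behind this level sum the single ligands differed, as the bar plot by library shows. A change of at least 1 on the log2 scale in either direction was taken as the mark of a large difference, among genes with at least 50 UMIs in 1 of the libraries compared. In macrophage- or monocyte-like cells 7 of the 8 genes could be compared (Csf2 had too few UMIs). None passed with STING agonist, where 0.00955% of 10475 genes did, and none with LTβR agonist, where 0.309% of 10679 did. Ccl8 and Cx3cr1 passed with both agonists, where 0.569% of 10538 genes did.

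**Figure D2:**
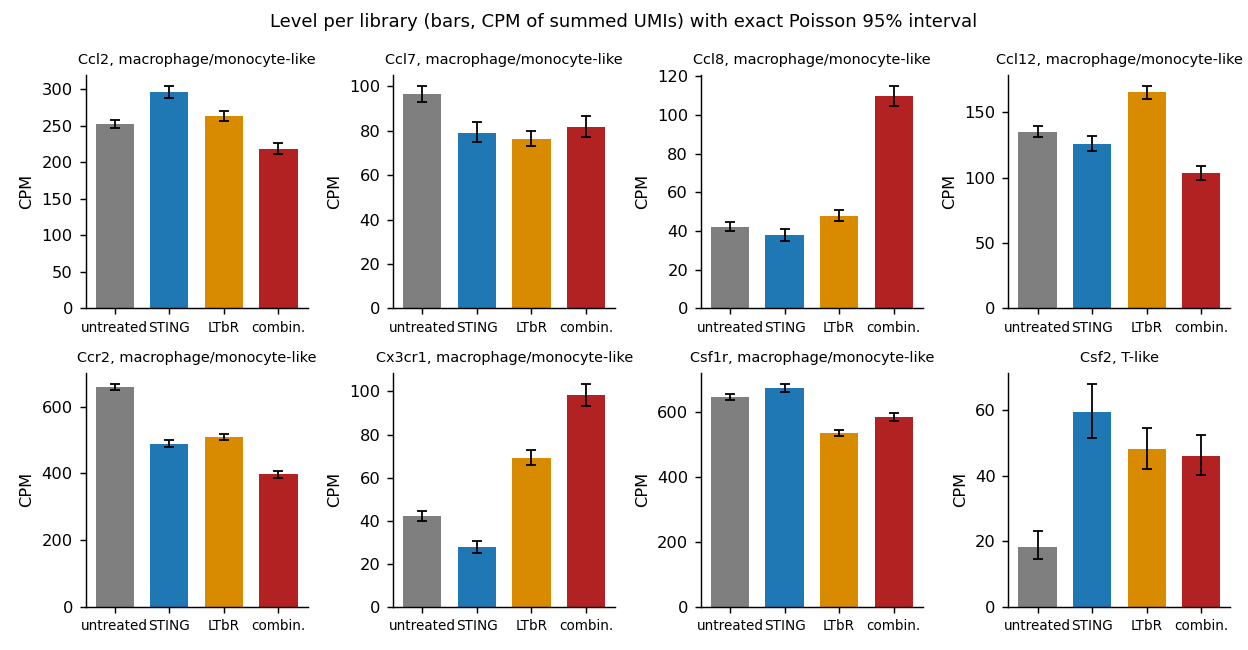
Level of 7 genes in macrophage- or monocyte-like cells and of Csf2 in T-like cells, in CPM of summed UMIs, for each of the 4 libraries, with bars starting at 0 and error bars giving exact Poisson 95% intervals of 1 library. Ccr2 is highest in the untreated library (658 CPM), Ccl8 and Cx3cr1 are highest with both agonists (110 and 98.3 CPM), and Csf2 is lowest in the untreated library (18.4 CPM).

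Ccl2, the main attractant of classical monocytes, was at 253 CPM (247 to 259) in the untreated library, 296 CPM (288 to 305) with STING agonist, 263 CPM (257 to 270) with LTβR agonist and 218 CPM (211 to 226) with both agonists. It was thus highest with STING agonist alone and lowest with both agonists. The log2 ratios to the untreated library were 0.22 (0.15 to 0.29), 0.06 (-0.01 to 0.12) and -0.20 (-0.28 to -0.12). A Ccl2 UMI was found in 29.1%, 33.1%, 32.4% and 27.5% of the cells in the same order (11.7%, 14.5%, 13.2% and 11.9% after thinning). Within the Cxcl9 Cxcl10 cluster Ccl2 was at 365, 412, 457 and 382 CPM, and within the C1q Trem2 cluster at 182, 222, 233 and 130 CPM. Unlike the class, each of these clusters was highest with LTβR agonist, and the Cxcl9 Cxcl10 cluster was lowest in the untreated library. In the resident-like cluster the untreated library was highest, with 510, 401, 269 and 234 CPM, although only 77 untreated and 36 STING agonist cells lay there. The 10 leading cells of each library held 83.4%, 93.4%, 35.9% and 40.9% of the Ccl2 UMIs in that cluster. Immediate early and other dissociation-associated genes, a list of 6 chosen after the data had been seen, summed to 2571, 3091, 2254 and 2270 CPM in the class, also highest with STING agonist, and their part in the Ccl2 values was not tested. Outside the class, neutrophil-like cells had Ccl2 at 38.7, 19.3, 106 and 42.6 CPM, from 25, 17, 133 and 8 UMIs.

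Ccl7, a second CCR2 ligand, was at 96.6 CPM (93.0 to 100.3) untreated, 79.2 CPM (74.8 to 83.8) with STING agonist, 76.4 CPM (73.0 to 79.9) with LTβR agonist and 81.8 CPM (77.3 to 86.5) with both agonists. All agonist libraries lay below the untreated one, by -0.26 (-0.38 to -0.13), -0.30 (-0.41 to -0.20) and -0.22 (-0.34 to -0.09) on the log2 scale. The share of cells with Ccl7 was no lower before thinning, at 9.07%, 10.3%, 9.21% and 9.51% (thinned 3.72%, 4.51%, 3.50% and 4.66%). The mean of CPM per cell, which weights each cell equally, gave 0.26 for the STING agonist and 0.14 for the combination, the opposite direction. In the Cxcl9 Cxcl10 cluster Ccl7 was at 72.8, 80.1, 56.0 and 19.2 CPM, lowest with both agonists at a log2 ratio of -1.502. In the resident-like cluster it was 629 CPM untreated against 339, 320 and 306 CPM. The low-depth subset went the other way, with 20.5, 221, 106 and 96.0 CPM from 6, 32, 42 and 28 UMIs, and an unnamed subset marked by heat-shock genes (the heat-shock subset) was highest with both agonists, at 120.3, 76.98, 71.9 and 189.7 CPM.

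Ccl12, a CCR2 ligand of the mouse, was at 135 CPM (131 to 140) untreated, 126 CPM (120 to 132) with STING agonist, 165 CPM (160 to 170) with LTβR agonist and 103 CPM (98.4 to 109) with both agonists. It was highest with LTβR agonist alone and lowest with both. The ratios were -0.10 (-0.20 to 0.01), 0.27 (0.19 to 0.36) and -0.36 (-0.46 to -0.25). In the C1q Trem2 cluster, the largest cluster of the untreated class, the levels were 154, 164, 194 and 76.2 CPM, with a combination ratio of -0.93, the lowest of the 6 clusters that could be compared. The resident-like cluster was also below untreated, with 571, 209, 473 and 330.1 CPM, where the 10 leading cells held 61.9%, 94.4%, 50.8% and 46.1% of the UMIs. The monocyte-like cluster, at 4.82, 6.03, 19.0 and 23.1 CPM, and the low-depth subset, at 143, 207, 484 and 285 CPM, were above it with both agonists, by 1.16 (0.47 to 1.76) and 0.94 (0.22 to 1.68). The monocyte-like levels came from only 8, 7, 65 and 46 UMIs in 5, 6, 25 and 9 cells. The share of those cells with a UMI was 2.5% (0.82 to 5.74) untreated and 3.9% (1.80 to 7.27) with both agonists. At untreated cluster proportions the combination ratio for the class was -0.71.

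Ccl8 stood apart. It was at 42.2 CPM (39.8 to 44.7) untreated, 37.7 CPM (34.7 to 40.9) with STING agonist, 47.8 CPM (45.1 to 50.6) with LTβR agonist and 110 CPM (104 to 115) with both agonists. The combination was higher than each of the other libraries, and those lay close together. The ratios were -0.13 (-0.29 to 0.03), 0.15 (0.01 to 0.28) and 1.20 (1.07 to 1.33). Few cells carried this RNA: a UMI was found in 4.37%, 4.67%, 5.34% and 7.85% of the class (thinned 1.496%, 1.82%, 2.49% and 4.09%), and the 10 cells with the most UMIs held 59.1%, 69.0%, 37.4% and 49.9% of all Ccl8 UMIs in the class. Without the leading cell of each library the combination ratio was 1.251.

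The makeup of the class differed between libraries in parallel. Resident-like macrophages were 2.61% of the class untreated (77 cells), 2.55% with STING agonist (36), 8.14% with LTβR agonist (236) and 17.1% with both agonists (309). Monocyte-like cells, defined by markers such as Ly6c2 and Vcan, were 6.77%, 7.85%, 15.3% and 12.8%, and nonclassical monocyte-like cells 2.10%, 1.84%, 7.07% and 11.996%. The C1q Trem2 cluster went the other way, with 47.1%, 46.6%, 29.1% and 23.4%, and the Cxcl9 Cxcl10 cluster with 32.6%, 32.1%, 23.97% and 23.2%. Those last clusters therefore held most of the untreated class but not of the combination class. Unnamed clusters outside the class made up 18.8%, 17.9%, 17.5% and 22.1% of all kept cells.

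Within the resident-like cluster Ccl8 was not highest with both agonists. It was at 770 CPM untreated (702 UMIs), 643 CPM with STING agonist (218), 327 CPM with LTβR agonist (688) and 541 CPM with both agonists (1249). In the low-depth subset it was at 249.3, 655, 706 and 631 CPM, so all 3 agonist libraries were above the untreated one there. In the heat-shock subset it was 76.4, 15.9, 30.03 and 312 CPM, but 51 of 54 untreated and 96 of 143 combination UMIs came from 1 cell each. When the level of each cluster was weighted by its share of the UMIs of the untreated class, a comparison chosen after seeing the data, the Ccl8 ratio for the combination was -0.09 in place of 1.20, and for the LTβR agonist -0.49 in place of 0.15. Without the resident-like cluster it was 0.58 for the combination.

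**Figure D3:**
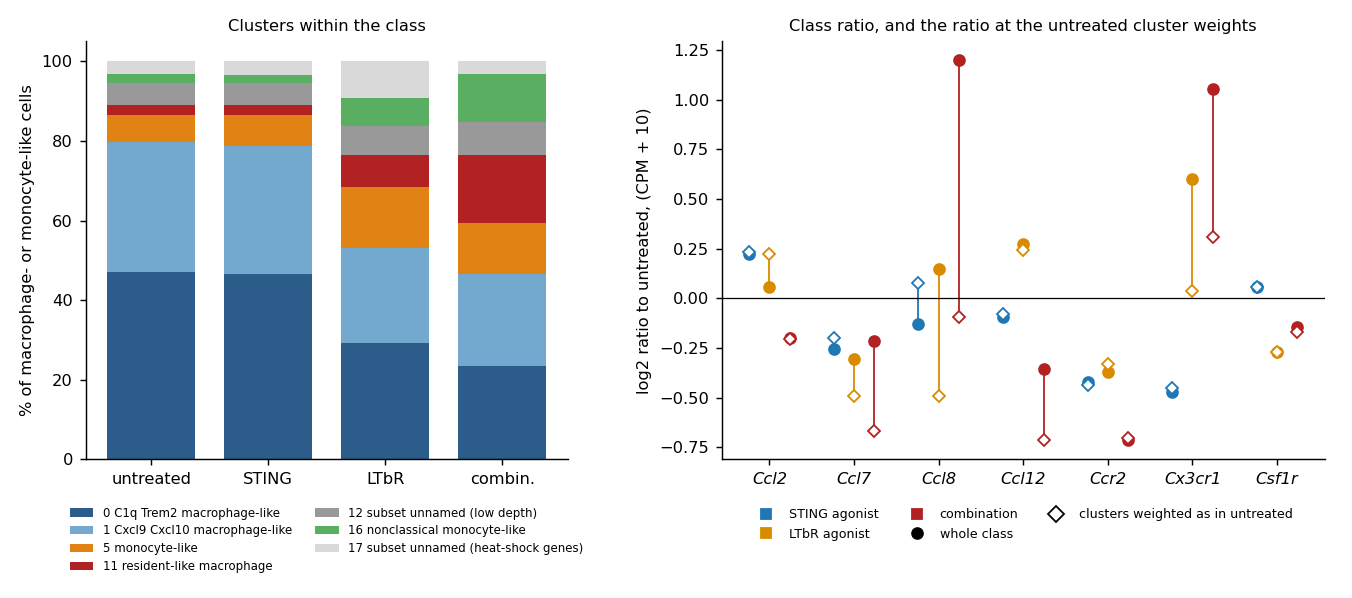
Left, percent of the macrophage- or monocyte-like class in each of 7 clusters, stacked for the 4 libraries. Right, log2 ratio to untreated for the class (circles) and with each cluster weighted as in the untreated library (diamonds); for the combination Ccl8 moves from 1.20 to -0.09 and Cx3cr1 from 1.05 to 0.31, while Ccr2 stays at -0.71 and -0.70.

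The receptor Ccr2 was lower in macrophage- and monocyte-like cells of every agonist library. It was at 658 CPM (648 to 667) untreated, 489 CPM (478 to 500.4) with STING agonist, 507 CPM (499 to 516) with LTβR agonist and 397 CPM (387 to 407) with both agonists. The untreated library was highest and the combination lowest, while the intervals of the STING agonist and LTβR agonist libraries overlapped. The log2 ratios were -0.42 (-0.47 to -0.37), -0.37 (-0.41 to -0.32) and -0.71 (-0.77 to -0.66), below the size taken as large. A Ccr2 UMI was detected in 82.4%, 77.2%, 73.8% and 64.5% of the cells, and in 43.2%, 33.8%, 33.8% and 28.0% after thinning. Over 14 alternative settings the ratios ranged from -0.61 to -0.38, from -0.40 to -0.29 and from -0.78 to -0.66.

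The lower Ccr2 of the class was also seen inside its clusters, as the plot of Ccr2 ratios by cluster shows. The monocyte-like cluster, which had the highest pooled level of all (797 CPM, 778 to 817), was at 915, 707, 867 and 632 CPM. The Cxcl9 Cxcl10 cluster was at 812, 653, 568 and 475 CPM and the C1q Trem2 cluster at 590, 404, 489 and 355 CPM. Nonclassical monocyte-like cells, which are known to carry little CCR2, were at 371, 189, 186 and 125 CPM. The counting interval of the ratio lay below 0 in 5 of 7 clusters with STING agonist, 4 with LTβR agonist and 6 with both agonists. It lay above 0 only in the resident-like cluster with LTβR agonist. That cluster was at 305 CPM untreated and 224, 400 and 359 CPM in the agonist libraries, with ratios of -0.43, 0.38 and 0.23.

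**Figure D4:**
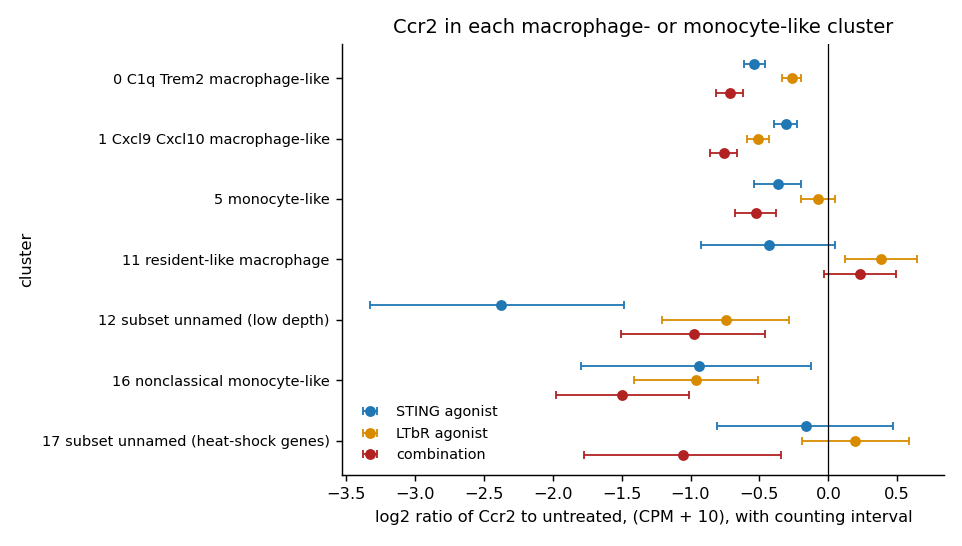
Log2 ratio of Ccr2 to the untreated library in the 7 macrophage- or monocyte-like clusters, for the 3 agonist libraries, with lines giving the counting interval. Most points lie below 0, with the interval below 0 in 5, 4 and 6 clusters, and the resident-like cluster has 0.38 and 0.23 in the LTβR agonist and combination libraries.

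Ccr2 was not confined to myeloid cells. Pooled over libraries, regulatory T-like cells had 664 CPM (637 to 692), which their interval did not separate from the Cxcl9 Cxcl10 macrophage cluster (662 CPM, 652 to 673). Gamma-delta T17-like cells followed with 412 CPM (383 to 443) and the NK- or ILC1-like cluster with 323 CPM (311 to 336). In regulatory T-like cells the 4 libraries were close, at 702, 713, 650.2 and 632 CPM, and in gamma-delta T17-like cells at 400.5, 456, 408 and 393 CPM. In all NK- or ILC1-like cells Ccr2 was at 352, 327, 311 and 293 CPM, with a combination ratio of -0.25 (-0.47 to -0.04). The T-like class was at 230, 221, 299 and 225 CPM, highest with LTβR agonist at a ratio of 0.36 (0.20 to 0.53). In the unnamed Gzmf and Cd8a cluster the order was different, with 49.8, 66.8, 34.8 and 42.9 CPM.

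Cx3cr1 went in the opposite direction from Ccr2 in 2 of the 3 agonist libraries. In macrophage- or monocyte-like cells it was at 42.2 CPM (39.8 to 44.7) untreated, 27.7 CPM (25.1 to 30.5) with STING agonist, 69.2 CPM (66.0 to 72.6) with LTβR agonist and 98.3 CPM (93.4 to 103) with both agonists. It was lowest with STING agonist alone and highest with both. The ratios were -0.47 (-0.64 to -0.30), 0.60 (0.47 to 0.73) and 1.05 (0.92 to 1.19). Shares of cells with a UMI followed the same order, at 16.7%, 14.4%, 25.0% and 30.02% (thinned 3.72%, 2.47%, 6.82% and 9.38%).

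Pooled over libraries, the resident-like and the nonclassical monocyte-like clusters did not separate in their Cx3cr1 level (226 CPM each), followed by a T-like cluster (170 CPM, 148 to 194) and the monocyte-like cluster (134.4 CPM, 127 to 143). Both leading clusters took up more of the class with LTβR agonist and the combination. At untreated cluster proportions the ratio was 0.04 for the LTβR agonist and 0.31 for the combination. Within the resident-like cluster Cx3cr1 was lower in each agonist library, at 368 CPM untreated against 162, 193 and 211 CPM. Within the monocyte-like cluster it was 107, 102, 147 and 155 CPM, and within the Cxcl9 Cxcl10 cluster 14.3, 10.5, 21.8 and 31.4 CPM, with ratios of 0.50 (0.15 to 0.85) and 0.77 (0.42 to 1.11) for the combination. In T-like cells Cx3cr1 was at 60.2, 32.9, 29.7 and 40.7 CPM, so the untreated library was highest there, with ratios of -0.71, -0.82 and -0.47.

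Csf1r varied little. It was at 647 CPM (638 to 657) untreated, 673 CPM (660.3 to 686) with STING agonist, 534 CPM (525 to 543) with LTβR agonist and 585 CPM (573 to 598) with both agonists. The LTβR agonist library was the lowest and the STING agonist library the highest. The ratios were 0.06 (0.01 to 0.10), -0.27 (-0.32 to -0.23) and -0.14 (-0.19 to -0.09). A Csf1r UMI was found in 90.9%, 92.0%, 85.7% and 83.8% of the class (thinned 44.5%, 46.2%, 39.1% and 39.5%), against 2.00% of T-like cells over all libraries. Pooled levels ran from 330 CPM (298 to 366) in the low-depth subset to 742 CPM (709 to 775) in nonclassical monocyte-like cells, and the C1q Trem2 and monocyte-like clusters did not separate at 632 CPM each. Of genes singled out after their values were seen, the CSF1R ligand Csf1 was found mainly outside the class. It was at 518 CPM (493 to 545) in neutrophil-like cells (1542 UMIs) and 18.4 CPM in macrophage- or monocyte-like cells. The unnamed Gzmf and Cd8a cluster held more of its UMIs, 2772 at 166 CPM (160 to 173).

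Csf2 was a rare transcript of T-like cells. In all 23011 cells there were 1079 UMIs in 225 cells, and T-like cells held 745 of them. In T-like cells it was at 18.4 CPM untreated (76 UMIs in 21 of 1084 cells), 59.4 CPM with STING agonist (211 in 29 of 847), 48.0 CPM with LTβR agonist (234 in 41 of 1235) and 46.0 CPM with both agonists (224 in 37 of 1092). The untreated library was below all 3 agonist libraries, which differed less among themselves. The log2 ratios were 1.29 (0.90 to 1.67), 1.03 (0.66 to 1.40) and 0.98 (0.61 to 1.35). In T-like cells 4 of the 8 genes could be compared, and Csf2 was the only member past 1 with STING agonist (0.614% of 8140 genes) and with LTβR agonist (0.832% of 8409). None passed with both agonists (0.9% of 8441).

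Few cells carried the Csf2 difference. The share of T-like cells with a UMI was 1.94%, 3.42%, 3.32% and 3.39% (thinned 0.866%, 1.35%, 1.54% and 1.53%), and the 10 leading cells held 85.5%, 81.5%, 82.1% and 83.0% of the UMIs, as the ranked plot of cells shows. The leading cell alone had 12, 40, 90 and 56 UMIs. Without it in each library the ratios were 1.19, 0.64 and 0.81. The ILC2- or Th2-like cluster held 684 of all Csf2 UMIs, in 89 of its 1408 cells, and was at 54.8, 131, 119 and 116 CPM. At the finer resolution of 2, the ILC2- or Th2-like name was given to clusters of 268 and 136 cells, which held 487 Csf2 UMIs (290.4 CPM) and 75 (95.2 CPM). A larger T-like cluster of 1014 cells, without that name, held 122 UMIs (31.3 CPM). The ILC2- or Th2-like cluster of 1408 cells at the main resolution was 25.2%, 37.7%, 38.0% and 31.8% of T-like cells. By library, the finer clusters with that name held 59, 44, 85 and 80 cells (the larger) and 11, 7, 39 and 79 cells (the smaller). The shares of the 1408-cell cluster can therefore not be read as shares of cells with that name at the finer resolution. At untreated proportions of the T-like clusters the ratios were 0.88, 0.64 and 0.68. The dissociation-associated genes summed to 530, 1031, 749 and 739 CPM in T-like cells, also lowest in the untreated library, and their part in the Csf2 values was not tested.

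**Figure D5:**
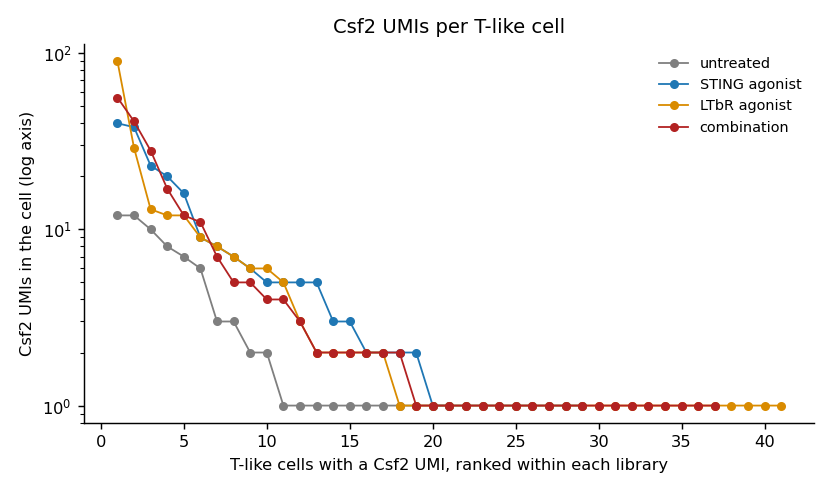
Csf2 UMIs in each T-like cell with at least 1 UMI, ranked within its library, on a log axis. The leading cells have 12, 40, 90 and 56 UMIs for untreated, STING agonist, LTβR agonist and combination, and 21, 29, 41 and 37 cells have any.

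Csf2-positive cells were mostly T cells by their other RNA. Of the 225 cells, 172 had a Cd3e UMI, 91 Cd4, 44 Cd8a, 26 Trdc and 81 Gata3, the factor that directs type 2 lymphocytes. Among T-like cells with Cd4 and no Cd8 RNA the level was 31.5, 96.3, 92.9 and 64.2 CPM, and among those with Cd8 and no Cd4 RNA 2.33, 9.49, 5.26 and 1.74 CPM (19 UMIs in 971 cells). The unnamed Gzmf and Cd8a cluster, outside the class, had 59 Csf2 UMIs in 25 of its 2090 cells, at 3.43, 2.86, 2.63 and 4.66 CPM. In NK- or ILC1-like cells Csf2 was at 16.4, 5.88, 3.67 and 2.57 CPM, from 38, 9, 12 and 5 UMIs in only 5, 6, 10 and 3 cells. The share of these cells with a UMI, 1.13%, 2.33%, 1.45% and 0.796%, did not follow that order. In the combination library, macrophage- or monocyte-like cells had 32 Csf2 UMIs, which all came from 1 cell.

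The companion list of 33 genes holds other chemokines, myeloid chemokine receptors, colony-stimulating factors, adhesion genes and macrophage transcription factors. In macrophage- or monocyte-like cells 26 could be compared. None passed a log2 ratio of 1 with STING agonist, 3 did with LTβR agonist and 1 with both agonists. Their median ratios were 0.07, 0.01 and 0.14, beside medians of 0.01, 0.01 and 0.03 over all genes compared. Ccl5, which attracts lymphocytes, stood at 1603 CPM untreated, 1271 CPM with STING agonist, 357 CPM with LTβR agonist and 723 CPM with both agonists. Its ratios were -0.33, -2.14 and -1.14. Ccl6 was at 195, 242, 418 and 385 CPM (1.06 for the LTβR agonist), and Ccl24, which attracts eosinophils, stood at 118, 66.0, 279 and 142 CPM (1.17). Markers of T and B cells were low in the class. T cell markers (7 of 7 detected in each library) summed to 12.1 to 36.6 CPM and B cell markers to 14.97 to 45.8 CPM. The NK or ILC1 marker list was not low there, at 2636.5, 2571.2, 2637.5 and 2566.3 CPM. This list includes Tyrobp and was not particular to NK cells. Pooled over libraries it summed to 4568 CPM in neutrophil-like and 1905 CPM in dendritic-like cells, against 7657 CPM in NK- or ILC1-like cells. Which of its genes made up the sum was not separated. Plasma cell markers and some dendritic cell markers, pooled over libraries, also summed higher in the class than T or B cell markers. B cell markers were highest with both agonists, and their part in the values above was not tested.

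Over the 29 clusters, pooled over libraries, the genes whose level was most like each member's were named by Pearson's r of log2(CPM + 10) among 10849 genes. This describes 29 points that share libraries and depth. Ccl2 was most like Ccl9 (0.904), Slc7a8 (0.898) and Cebpa (0.889), and Ccl7 most like Egr2 (0.918), Slc7a8 and Syngr1. Ccl12 followed the C1q macrophage genes closely, with Ms4a7 (0.967), C1qc and C1qa, whereas Ccl8 was most like Ptgs1, C4b and Cxcl14 (0.89 each). Csf1r was most like Sirpb1c (0.98), Klra2 and Lyz2. Ccr2 had no close match, with Rnpep (0.76), Slfn9 and Ltb4r1 leading, nor did Cx3cr1, led by Smpdl3b (0.71), Blvra and Sec14l1. Csf2 was most like Lgals7 (0.76), Cd40lg and Krt83.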

How the data were processed

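Live CD45-positive tumour leukocytes of 4 groups were profiled with 10x Genomics 5′ single-cell RNA sequencing, 1 library per group. The authors deposited raw UMI counts per gene and barcode, made with Cell Ranger 7.1.0 against mm10 per the submitters' processing notes. The 4 libraries share 1 count matrix and were told apart by the barcode suffix that the labels assign to each sample. Whole libraries held between 3955 and 7824 barcodes.

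The study's quality limits were applied, keeping barcodes with 300 to 5000 genes and no more than 6% of UMIs from mitochondrial genes. Cells of all libraries were clustered together (2000 variable genes, 30 principal components, 20 neighbours, Leiden, resolution 1, no batch correction), leaving out 635 V(D)J genes and the 41 member and companion genes. A cluster was named from at least 3 detected markers, and these naming limits were set with the clusters in view. Doublets were kept, and cells with a Scrublet score of at least 0.2 were left out in an alternative.

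UMIs were summed per library and class and scaled to CPM with exact Poisson 95% intervals. Shares have exact (Clopper-Pearson) intervals and were repeated after thinning each cell to 1000 UMIs, with shallower cells left out. Log2 ratios were taken after adding 10 CPM, which understates differences of low genes. With 1 library per group there was no replicate spread, so no test was made. Each UMI counts 1 molecule by its 5′ end. The log2 ratio and its interval were tested on simulated Poisson counts, which lack the concentration of UMIs in few cells. Clustering, naming, shares and cluster weighting were not simulated.

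Named were the 8 members, companions past a log2 ratio of 1, and for each member the 3 genes most like it among those with at least 500 UMIs. Members and lists were chosen with earlier results of these data known. Alternatives changed 1 choice at a time (pseudocount, filter, scaling, resolution, clustering genes, class assignment, weighting of cells or clusters, shallow cells, doublets). Leaving out the leading cell, the resident-like cluster or shared barcodes, and weighting by untreated proportions, were chosen after seeing the data. Python 3.11.15, scanpy 1.11.5, leidenalg 0.10.2, scipy 1.17.1, Biopython 1.88 and matplotlib 3.10.9 were used. Promoters were taken from RefSeq and gene positions from GENCODE.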

Additional observations from a re-analysis of the deposited data

Results flagged for a closer look

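In the 2 by 2 design the effect of each agonist can be read without and with the other. For 4 values in macrophage- or monocyte-like cells these effects had opposite signs and both counting intervals excluded 0. Further values changed sign without meeting this limit, among them the STING agonist effect on Ccl8 (-0.13 without and 1.05 with the LTβR agonist). None of the differences was tested, because each rests on 4 single libraries. The STING agonist effect on Ccl2 was 0.22 on the log2 scale without the LTβR agonist and -0.26 with it, a difference of -0.48. It also changed sign within the C1q Trem2 cluster (0.27 and -0.79) and the Cxcl9 Cxcl10 cluster (0.17 and -0.25). It kept its sign in the monocyte-like cluster (0.72 and 0.07) and the resident-like cluster (-0.34 and -0.19). The low-depth subset (0.74 and 0.36) and the heat-shock subset (0.62 and 0.34) kept it too. The LTβR agonist effect on Ccl12 was 0.27 without and -0.26 with the STING agonist, a difference of -0.53. The C1q Trem2 cluster (0.31 and -1.01), Cxcl9 Cxcl10 cluster (0.08 and -0.40) and heat-shock subset (0.95 and -0.09) changed sign likewise. In the resident-like cluster the change went the other way (-0.27 and 0.63). The effect was positive both times in the monocyte-like cluster (0.97 and 1.05) and the low-depth subset (1.69 and 0.44). The STING agonist effect on Cx3cr1 was -0.47 without and 0.45 with the LTβR agonist, a difference of 0.92. The LTβR agonist effect on the ligand sum was 0.07 without and -0.07 with the STING agonist, a difference of -0.14.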

How the results depend on the processing

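No paired analysis was possible because each group has 1 library and the labels give no shared replicate numbers. Ccr2 stayed below untreated in each agonist library, and Csf2 in T-like cells above it, under each of the 14 alternatives, with Csf2 ratios of 0.68 to 1.64 (STING agonist), 0.40 to 1.34 (LTβR agonist) and 0.43 to 1.28 (combination). With the mean of CPM per cell, Ccl7 reversed to 0.26 (STING agonist) and 0.14 (combination), the ligand sum was 0.34, 0.20 and 0.040, and 3 companions passed with the combination. With clusters weighted equally, Csf1r with the STING agonist reversed to -0.040, and with the LTβR agonist the ligand sum to -0.060, Ccl8 to -0.048 and Cx3cr1 to -0.070; the combination's sum was -0.14 and 0 companions passed there. At untreated cluster proportions Ccl8 reversed to -0.49 (LTβR agonist) and -0.092 (combination), and the combination's ligand sum was -0.41. Without the resident-like cluster the sum was 0.16 (STING agonist) and -0.39 (combination). At resolution 2 the sum was 0.12 (LTβR agonist) and 0.10 (combination), 2 companions passed with the combination, and the monocyte-like share ratio of the combination was 1.38 in place of 1.89. With a marker score per cell the sum was 0.18 for each agonist alone, and the monocyte-like share ratios were 1.61 (LTβR agonist) and 1.17 (combination). Size factors gave a combination sum of -0.10, members kept for clustering a STING agonist sum of 0.10, and a pseudocount of 50 CPM left 1 companion with the LTβR agonist. The causes were not tested.

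With 1 library per group, treatment, pool of tumours and library cannot be told apart. Depth limits rare transcripts such as Ccl8 and Csf2, whose UMIs lay in few cells.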

Other observations

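The following genes were singled out after their values were seen. The receptor for GM-CSF was found in myeloid cells: pooled over libraries, Csf2rb was at 613 CPM (585 to 642) in neutrophil-like cells, 461 CPM (452 to 471) in dendritic-like cells and 385 CPM (380 to 389) in macrophage- or monocyte-like cells, against 10.1 CPM in T-like cells. The CX3CR1 ligand Cx3cl1 had 214 UMIs in all kept cells, of which 129 lay in the mature dendritic-like cluster (27.3 CPM, 22.8 to 32.4). The second CSF1R ligand, Il34, had 98 UMIs in all. Of these, 50 lay in the plasmacytoid dendritic-like cluster (19.8 CPM, 14.7 to 26.1) and 28 in the 17 cells that carry markers from outside the CD45 gate. The basophil- or mast-like cluster of 27 cells had 375 Csf1 UMIs (3752 CPM, 3382 to 4152).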
